A study of Homo sapiens with 2 samples.

Results

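The MYC family and MAX network comprised 10 genes: MYC, MYCN and MYCL, which encode the MYC proteins; MAX, which encodes their shared dimerization partner; and MXD1, MXD3, MXD4, MXI1, MNT and MGA, which encode the other proteins that dimerize with MAX. The 10 genes were chosen by name, with earlier results of these data known, from 19881 protein-coding genes with a GRCh38 position. For each one, every OTX2 peak that overlapped its annotated gene record or the 50 kb on either side was taken, and for MYC the 500 kb on either side. These windows held 206 of 137412 peaks, 103 around MYC and 103 around the other 9 genes. OTX2 is a homeodomain transcription factor that is expressed in Group 3 and Group 4 medulloblastoma, a tumor of the cerebellum. Its DNA binding was profiled by chromatin immunoprecipitation and sequencing (ChIP-seq) in untreated OTX2+ control tumorspheres of D283, an established medulloblastoma cell line grown as floating spheres. There was 1 library precipitated with an OTX2 antibody and 1 library of input chromatin, so no value has a replicate error and no difference was tested. D283 was the only line profiled, and peaks cannot check the identity of the cells as transcripts would.

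MYC proteins bind DNA only as heterodimers with MAX, at the E-box CACGTG and its variants, and recruit histone acetyltransferases that raise transcription. MAX also pairs with MXD proteins, MXI1, MNT and MGA, which occupy the same E-boxes and recruit corepressors, so that the network is read as a balance between MYC and its antagonists. In medulloblastoma, amplification or high expression of MYC marks part of Group 3 tumors, and amplification of MYCN is found in other groups. OTX2 recognizes the bicoid-type homeodomain core TAATCC and the close variant TAATCT.

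After removal of duplicates the OTX2 library held 61259377 fragments and the input library 22521186, a ratio of 2.72. Each peak is described by 4 values: its pileup, the scaled fragment coverage at the summit; the number of ChIP fragments that this pileup stands for, with an exact 95% Poisson interval that covers counting error only; its fold enrichment, the ratio of pileup to local input with 1 added to both; and that local input, which pileup and fold enrichment together imply. The pileup added by 1 fragment was taken as the step between pileup values, which is 2 times the 0.368 that the ratio of input to ChIP fragments gives. If 0.368 stood for 1 fragment, every fragment count below would be 2 times as large, while pileup and fold enrichment would not change. The Poisson intervals would then be narrower relative to their counts, so some that overlap here might not. The peak caller lets local input fall no lower than a genome-wide floor, 3.98 pileup units, and 26.4% of all peaks sat on that floor. Over all peaks the median was 53 fragments, a fold enrichment of 6.10 and a local input of 5.00. Distances are given from the transcription start site (TSS) of the GENCODE gene record on GRCh38, and the region near a TSS is 5 kb upstream to 2 kb downstream, the region that the study used for its own target genes.

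Promoter sequences were read for the members from RefSeq on GRCh38.p14, which matched 9 of the 10 symbols, all but MYC, with 14 promoters, each from 250 bases before to 50 bases after a start site. Of these, 10 of 14 overlapped an OTX2 peak, against 30.0% of all 35116 RefSeq promoters; the 14 belong to 9 genes and are not independent. Neither TAATCC nor TAATCT was found on either strand of any of the 14, while 12.8% of all 35116 promoters of the same length held at least 1 of them. The E-box CACGTG, which reads the same on both strands, was found in the promoters of MXD4 and MNT and in 7.26% of all promoters. TAATCC and TAATCT differ in their last letter, so no position was counted for both. Absence of a motif says only that those letters are not in this window. The 4 sequences below lie before the start sites of the member with the highest fold enrichment near its TSS (MYCN), of the member with the lowest (MXI1), and of the 2 members with an E-box (MXD4 and MNT). They run 5′ to 3′ on the strand of the gene, with CACGTG in capitals and all other bases in lower case. The MYCN stretch is chr2:15940300-15940549 on the plus strand, the MXI1 stretch is chr10:110207355-110207604 on the plus strand, the MXD4 stretch is chr4:2262110-2262359 on the minus strand, and the MNT stretch is chr17:2401105-2401310 on the minus strand.
MYCN: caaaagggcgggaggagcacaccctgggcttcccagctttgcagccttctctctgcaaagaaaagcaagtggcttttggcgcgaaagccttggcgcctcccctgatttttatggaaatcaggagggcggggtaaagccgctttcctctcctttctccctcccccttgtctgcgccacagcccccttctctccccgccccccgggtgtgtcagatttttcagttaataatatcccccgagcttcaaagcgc
MXI1: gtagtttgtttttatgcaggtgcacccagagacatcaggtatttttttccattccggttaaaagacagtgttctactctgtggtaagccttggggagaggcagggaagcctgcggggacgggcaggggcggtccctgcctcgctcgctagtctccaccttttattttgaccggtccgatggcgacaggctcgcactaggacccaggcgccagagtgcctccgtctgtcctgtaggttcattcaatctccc
MXD4: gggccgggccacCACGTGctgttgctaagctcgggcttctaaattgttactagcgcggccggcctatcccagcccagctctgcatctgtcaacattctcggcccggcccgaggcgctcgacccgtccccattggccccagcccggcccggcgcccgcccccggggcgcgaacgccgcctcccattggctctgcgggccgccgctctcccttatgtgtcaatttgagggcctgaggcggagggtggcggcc
MNT: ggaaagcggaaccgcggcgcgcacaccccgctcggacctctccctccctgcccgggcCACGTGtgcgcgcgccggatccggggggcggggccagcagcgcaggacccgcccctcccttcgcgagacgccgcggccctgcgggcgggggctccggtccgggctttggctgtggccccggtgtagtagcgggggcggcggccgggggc
The peak over the MYCN promoter covered all 250 bases and had its summit 421 bp past the start. The peak at MXI1 also covered all 250 bases, and its summit lay 4 bp past the start. At MXD4 the peak began inside the stretch, covered 229 of the 250 bases with the E-box among them, and had its summit 217 bp before the start. The first base of the MXD4 E-box lay 238 bp before the start, so that summit and E-box fell within the same peak. At MNT the E-box began 193 bp before the RefSeq start and inside the peak, whose summit was further upstream, 563 bp before that start.

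All 10 members had an OTX2 peak near the TSS, against 57.2% of protein-coding genes, and 8 of 10 had one with a fold enrichment of at least 5, against 38.5% of protein-coding genes. The 2 without one were MXD1 and MXI1. Without peaks on the input floor, 6 of 10 members had a peak near the TSS (MYC, MYCN, MYCL, MXD1, MXD3 and MXD4), against 44.1% of protein-coding genes. The peaks were about as enriched as those of other genes: the highest fold enrichment near each TSS had a median of 6.18 over the 10 members and of 6.39 over the 11367 protein-coding genes with a peak there. Within 1 kb of the TSS a peak was found at 9 of 10 members, all but MXD1, and at 46.9% of protein-coding genes. In the wider windows a peak says little, since 94.1% of protein-coding genes had one within 50 kb and 99.9% within 500 kb.

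The peak at the MYC start was the tallest of the 10. It spanned chr8:127733920-127737477, 3558 bp, with a summit 748 bp past the TSS in an exon of MYC. It held 228 fragments (199 to 260), a pileup of 168, but its fold enrichment was 7.03, because its local input was 23.0. The other 9 members had between 27 and 68 fragments at their strongest peak near the TSS, and the interval of MYC overlapped none of theirs. In order of fragments they were MXD1 with 68 (52.8 to 86.2), MYCN with 67 (51.9 to 85.1), MXD3 with 62 (47.5 to 79.5), MXD4 with 55 (41.4 to 71.6), MGA with 45 (32.8 to 60.2), MAX and MNT with 43 each (31.1 to 57.9), MYCL with 35 (24.4 to 48.7) and MXI1 with 27 (17.8 to 39.3). Each of these 9 overlapped its neighbor in that order, and only peaks far apart in it, such as those of MXD1 and MXI1, had intervals that did not meet. The MXD1 peak in this ranking lay 3.84 kb before its TSS and 107 bp from the TSS of SNRNP27. By fold enrichment the order was different: MYCN led with 8.38, followed by MYC with 7.03, MGA with 6.84, MAX and MNT with 6.54 each, MXD3 with 5.82, MYCL with 5.25, MXD4 with 5.18, MXD1 with 4.64 and MXI1 with 4.18. The peaks of MAX, MNT, MXI1 and MGA had a local input at the genome-wide floor, so their fold enrichment was set by the ChIP fragments alone.

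**Figure D1:**
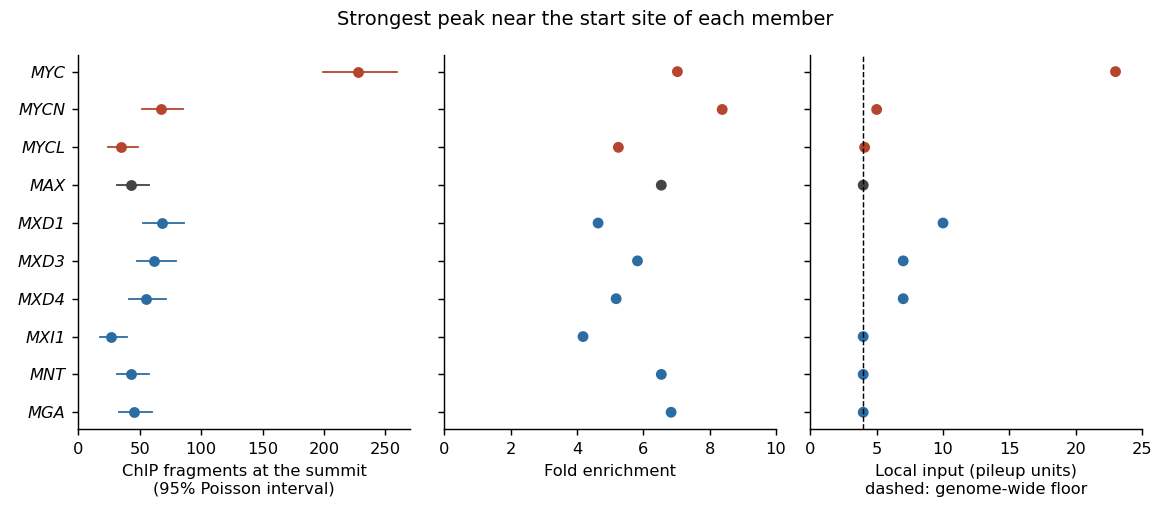
The strongest OTX2 peak near the TSS of each of the 10 genes, with ChIP fragments at the summit and their 95% Poisson interval (left), fold enrichment (middle) and local input in pileup units (right, dashed line at the genome-wide floor of 3.98). MYC proteins are red, MAX is dark grey and the antagonists are blue. MYC stands apart in fragments (228) and in local input (23.0), while its fold enrichment of 7.03 lies within the range of the others, 4.18 to 8.38. The MXD1 peak lies 3.84 kb before its TSS and 107 bp from the TSS of SNRNP27.

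The MYC window differed from the windows of the other members in its input as well as in its ChIP signal. MYC lies at chr8:127735434-127742951 on the plus strand, and its 103 peaks came to 10.2 per 100 kb, above 97.8% of protein-coding genes measured over windows of the same flanks. Taken with the 50 kb flanks of the other members, MYC had 15 peaks, 14.0 per 100 kb, above 96.9% of genes. Both ranks count peaks of any fold enrichment. A fold of at least 5 was reached by 42 of the 103, and no rank at that threshold was computed. The median local input of the 103 peaks was 17.0. None of the 17945 protein-coding genes with at least 20 peaks within 500 kb had a higher median, and the middle value of those genes was 4.68. Input is the denominator of fold enrichment, so a tall peak need not have a high fold. The 2 tallest of all 137412 peaks lay in the MYC window, but tall peaks were not particular to MYC. Of the 20 tallest, 17 lay on chromosome 8 and 4 in the MYC window, and of the 100 tallest, 59 and 6. None of the 1000 peaks of highest fold enrichment lay in the window, but with 103 of all peaks it would hold few or none at an even share. The highest fold in the window was above that of 14.1% of protein-coding genes with the same flanks. The tallest peak had 461 fragments (420 to 505) at a fold of 10.0, 435 kb upstream of the TSS within introns of the long noncoding RNA genes CASC8 and PCAT1. The second had 457 fragments (416 to 501) at a fold of 12.0, 168 kb upstream in intergenic sequence. Their intervals overlapped, so neither was taller than the other beyond counting error.

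Local input in the MYC window was described in segments, and all cuts but the one at the gene end were read from the values themselves. The high segment ran between the first and last peaks at which the median of 5 neighboring peaks was at least 18. Its higher median is therefore partly built in. The 5 peaks furthest upstream, 483 to 455 kb before the TSS, had a median local input of 13.6. From 448 to 89.2 kb upstream, 52 peaks had a median of 24.0, which was 6.02 times the floor, and a range of 14.3 to 42.0. From 83.3 kb upstream to 3.88 kb into the gene, 18 peaks had a median of 14.0, or 3.52 times the floor. Their range, 9.69 to 23.0, overlapped that of the 52 peaks. Past the gene, 28 peaks from 37.9 to 491 kb downstream had a median of 4.84, or 1.21 times the floor, and 8 of them sat on the floor, while none of the 75 peaks at or upstream of the gene did. The drop lay between a peak 3.88 kb past the TSS with a local input of 14.0 and a peak 37.9 kb past it with 3.99, a stretch of 34.1 kb without a peak.

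The ChIP signal followed the same division. The 75 peaks at or upstream of the gene had between 35 and 461 fragments, with a median of 105, and 23 of them had at least 200. The 28 downstream peaks had between 19 and 161 fragments, with a median of 47, and none had 200. The medians of fold enrichment, in contrast, lay close together, 4.01 at or upstream of the gene and 4.66 downstream of it. Both were below the median of 6.10 over all peaks. A fold of at least 5 was reached by 40.8% of the 103 MYC peaks, against 62.9% of all peaks. The highest fold enrichment upstream was 12.8, at a peak of 247 fragments (217 to 280) located 23.9 kb before the TSS in an intron of CASC11, a noncoding gene beside MYC. The highest downstream, and in the whole MYC window, was 19.9 at a peak of 161 fragments (137 to 188), 430 kb past the TSS in an intron of PVT1, a long noncoding RNA gene known as a site of rearrangement in medulloblastoma. A second PVT1 peak, 395 kb past the TSS, had 141 fragments (119 to 166) and a fold of 19.2. PVT1 introns held 22 of the 103 peaks and its exons 3, CASC11 introns held 11, and 19 were intergenic. For 66 of the 103 peaks MYC was the nearest protein-coding TSS, and for the other 37 it was POU5F1B, a retrogene related to POU5F1.

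**Figure D2:**
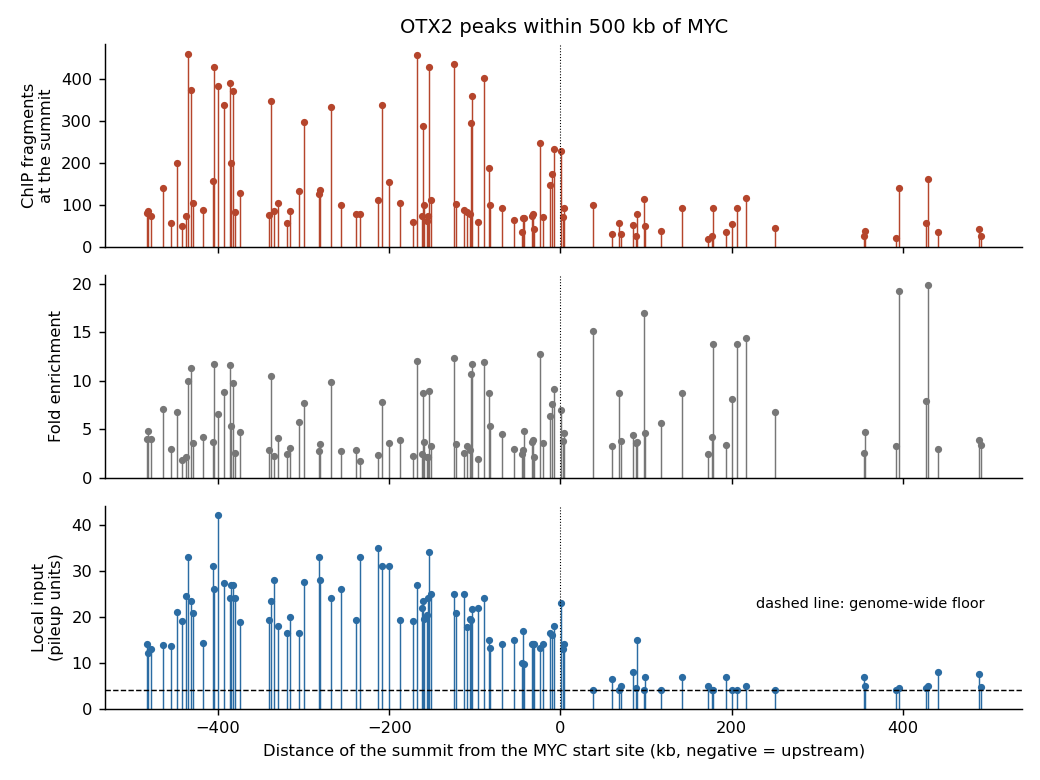
The 103 OTX2 peaks within 500 kb of MYC, by the distance of the summit from the TSS in kb (dotted line at 0), with ChIP fragments at the summit (top), fold enrichment (middle) and local input in pileup units (bottom, dashed line at the floor of 3.98). Fragments and local input are high on the upstream side and fall past the gene, and the highest fold enrichment, 19.9, lies on the downstream side.

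Close to the gene, 3 peaks overlapped the MYC record. Besides the peak at the start, there was one 2.50 kb into the gene with 71 fragments (55.5 to 89.6) at 3.80-fold, and one 3.88 kb past it with 94 (76.0 to 115) at 4.66-fold. Just upstream, within CASC11, peaks at 7.74, 9.57 and 12.1 kb before the TSS had 234, 174 and 148 fragments and folds of 9.11, 7.58 and 6.32. The first of these overlapped the peak at the start in its interval (205 to 266 fragments against 199 to 260), so the peak at the start did not exceed it beyond counting error. All of these peaks had a local input of 13.0 to 23.0.

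The raised input was not limited to the surroundings of MYC. Along chromosome 8, 3389 peaks with summits 1 to 50 Mb upstream of MYC had a median local input of 12.0, or 3.01 times the floor, and none was on the floor. The 2802 peaks more than 60 Mb upstream had a median of 4.59, the 715 peaks more than 1 Mb downstream had 4.68, and the 126352 peaks of the other autosomes had 5.00. The MYC gene thus lay within 37.9 kb of the downstream end of a long stretch of raised input, and the last 500 kb bin before MYC had the highest median of the chromosome, 20.6. Local input reflects the number of DNA copies, the share of sequence that can be mapped and the openness of chromatin, and these cannot be told apart from a list of peaks.

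**Figure D3:**
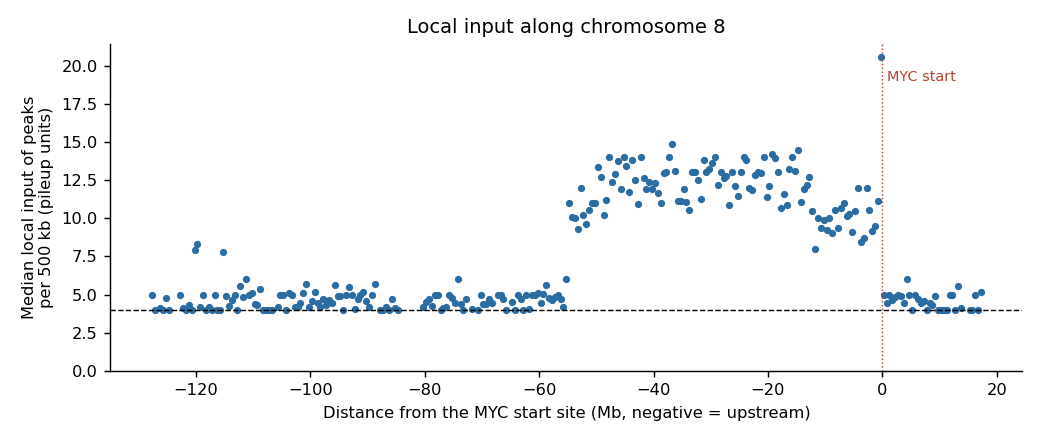
Median local input, in pileup units, of the OTX2 peaks in successive 500 kb bins of chromosome 8 with at least 5 peaks, by distance from the MYC TSS in Mb (dotted line at 0, dashed line at the floor of 3.98). A long run of bins that ends at MYC has mostly higher values than the bins on either side, though its lowest bins overlap the highest of those, the last bin before MYC is the highest at 20.6, and bins past MYC lie near the floor.

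MYCN, the paralog of MYC that is active in neural progenitors, had fewer peaks than MYC at the same 50 kb flanks, 6 against 15. The MYCN peaks had a higher median fold enrichment than the 103 peaks of the wider MYC window, 11.1 against 4.18. MYCN lies at chr2:15940550-15947007 on the plus strand, and its window held 6 peaks, 5.64 per 100 kb, close to the middle of all genes (percentile 54.9). Its 6 peaks had a median fold enrichment of 11.1, the highest median of the 10 members, and 5 of them had a fold of at least 5. MYCN was the nearest protein-coding TSS for all 6. The strongest lay inside the gene, in intron 2, 3.59 kb past the TSS; it reached a fold of 17.8 with 159 fragments (135 to 186) and did not overlap in its interval the peak at the start with 67 fragments. Beyond the gene, peaks 24.9 and 43.4 kb past the TSS had 101 and 92 fragments and folds of 15.1 and 13.8. Local input in the MYCN window stayed between 3.99 and 7.00, without the rise seen at MYC.

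MYCL, the remaining family member, lies at chr1:39895428-39902256 on the minus strand, and its 13 peaks came to 12.2 per 100 kb (percentile 93.8). Its peak of highest fold enrichment was 8.90 kb past the TSS, just beyond the end of the gene, with 125 fragments (104 to 149) and a fold of 18.5. Near the start there were 2 weaker peaks, 35 fragments with a fold of 5.25 at 273 bp upstream and 18 fragments (10.7 to 28.4) with a fold of 2.37 at 1853 bp downstream. For 6 of the 13 peaks TRIT1, the neighboring tRNA-modifying enzyme gene, was the nearest protein-coding TSS, and 4 lay in TRIT1 introns, with folds from 6.68 to 14.8.

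MAX lies at chr14:65006174-65102695 on the minus strand, and 14 peaks fell in its window, 7.12 per 100 kb (percentile 69.1). Its peak at the start had 43 fragments and a fold of 6.54, with the summit 159 bp past the TSS in an exon. The peak of highest fold enrichment, 14.6 with 98 fragments (79.6 to 119), lay 63.9 kb past the TSS. There an intron of MAX, in a transcript that runs beyond the Ensembl canonical one, overlaps introns of FNTB and of CHURC1-FNTB. The peak therefore cannot be given to 1 gene by position. For 8 of the 14 peaks the MAX TSS was the nearest one, and FNTB or RAB15 was for the other 6. On the upstream side the highest fold enrichment was 12.0, with 80 fragments (63.4 to 99.6), 44.5 kb before the TSS.

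Among the antagonists, MGA and MNT had the most enriched peaks of the network, and in both the peak lay upstream of the gene, by 23.1 and 22.4 kb, rather than at its start. MGA, a large protein that joins MAX to a Polycomb complex, lies at chr15:41621134-41773081 on the plus strand. Its window held 21 peaks, 8.34 per 100 kb (percentile 78.0). An intergenic peak at chr15:41597568-41598305, 23.1 kb before the TSS, had 256 fragments (226 to 289) and a fold of 38.0, above 99.6% of all peaks, at a local input of 3.99 on the floor. MGA was the nearest protein-coding TSS to it. Among protein-coding genes with a peak within 50 kb, 96.6% had a lower highest fold. The peak at the start of the MGA record had 45 fragments, and the intervals did not overlap. The promoters of further RefSeq starts of MGA, at chr15:41660405 and chr15:41660747, overlapped no peak. Within the gene, peaks 47.5 and 51.3 kb past the TSS had 121 and 224 fragments and folds of 15.2 and 16.6. They lay in introns 1 and 2 of the Ensembl canonical transcript, which starts inside the gene record. The tallest MGA peak, with 343 fragments (308 to 381) and a fold of 18.1, lay past the 3′ end in an intron of MAPKBP1, 176 kb from the MGA start, at a local input of 13.0, and MAPKBP1 was the nearest TSS.

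MNT, the most widely expressed of the MAX-binding repressors, lies at chr17:2384073-2401104 on the minus strand, and its window held 9 peaks, 7.69 per 100 kb (percentile 73.5). A peak at chr17:2423157-2423778, 22.4 kb before the TSS in an intron of METTL16, had 236 fragments (207 to 268) and a fold of 29.1, above 98.2% of all peaks. METTL16 encodes an RNA methyltransferase, and the TSS nearest to this peak was that of MNT. Among protein-coding genes with a peak within 50 kb, 87.5% had a lower highest fold. The peak at the MNT start had 43 fragments and a fold of 6.54, the same values as at MAX, and its interval did not overlap that of the distal peak. Of the 9 peaks, 1 lay over the MNT record and 6 lay in METTL16, with folds of 4.97 to 29.1.

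MXI1, an MXD-type repressor, lies at chr10:110207605-110287365 on the plus strand. It had 19 peaks, 10.6 per 100 kb (percentile 89.2), 13 of them over the gene. The 2 peaks near its TSS were weak, 25 fragments (16.2 to 36.9) with a fold of 3.89 at the start and 27 fragments with a fold of 4.18 further into intron 1. Its strongest peaks lay deep in the gene: in intron 3, 58.1 kb past the TSS, 193 fragments (167 to 222) gave a fold of 16.4, and 63.3 kb past it 114 fragments (94.0 to 137) gave a fold of 14.9. A peak of 28 fragments (18.6 to 40.5) and a fold of 3.08, 18.2 kb past the TSS, covered part of the promoter of a further RefSeq start of MXI1. Both of the strongest peaks were nearer to the TSS of SMNDC1, a splicing factor gene, than to that of MXI1.

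MXD1 lies at chr2:69897688-69942945 on the plus strand, and it had 13 peaks, 8.95 per 100 kb (percentile 82.0). Its 2 peaks near the TSS lay 3.84 kb and 2.82 kb upstream, with 68 and 18 fragments and folds of 4.64 and 2.85, and the first of them was 107 bp from the TSS of SNRNP27, a neighboring splicing gene. The RefSeq start of MXD1 lay 17421 bp inside the GENCODE record, and a peak covered the promoter there. That peak had 43 fragments (31.1 to 57.9), the same number as at the starts of MAX and MNT, but a fold of 1.92 against their 6.54, since its local input was 16.0 against 3.99. The strongest MXD1 peak was in intron 3, 32.1 kb past the GENCODE TSS, with 113 fragments (93.1 to 136) and a fold of 16.3.

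MXD3 and MXD4 had the lowest maximum fold enrichment of the 10 windows, 10.1 and 5.18, while their median folds, 6.18 and 5.13, lay within the range of the other members. MXD3, an MXD protein linked to proliferating cells, lies at chr5:177301461-177312757 on the minus strand and had 6 peaks, 5.39 per 100 kb (percentile 52.4). The peak in the gene near its start, 342 bp past the TSS, had 62 fragments and a fold of 5.82, and the highest fold enrichment in the window was 10.1, with 67 fragments, in an intron of NSD1, 57.0 kb away. MXD4, at chr4:2247432-2262109 on the minus strand, had 2 peaks, 1.74 per 100 kb (percentile 16.1), and none over the gene itself. These were the peak 217 bp before the start, with 55 fragments and a fold of 5.18, and a peak 25.1 kb upstream in an exon of ZFYVE28, with 47 fragments (34.5 to 62.5) and a fold of 5.08, whose intervals overlapped. MXD4 was the only member whose most enriched peak was the one near its TSS. The median highest fold was 16.0 over the 18706 protein-coding genes with a peak within 50 kb of the record. It was 6.39 over the 11367 with a peak near the TSS. The wider window contains the region near the TSS, so its maximum cannot be lower. The share of all genes whose most enriched peak lies away from the TSS was not counted, so this trait was not shown to be particular to these members.

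**Figure D4:**
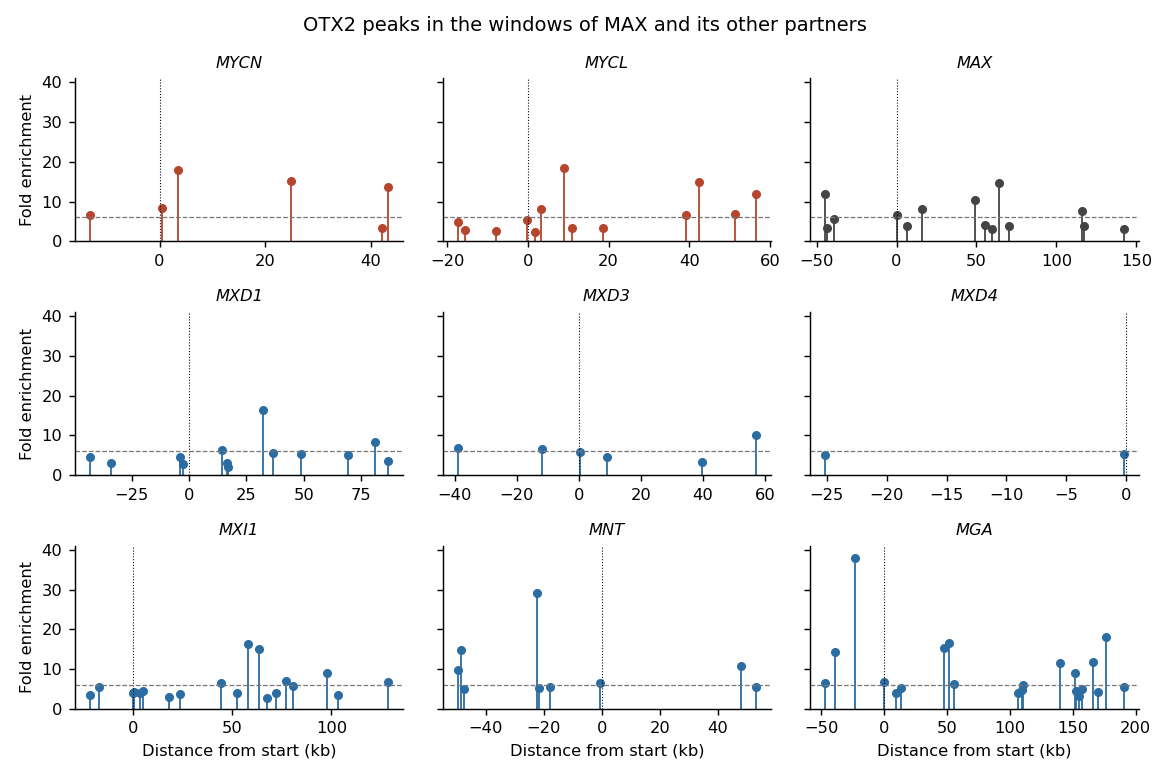
Fold enrichment of the 103 OTX2 peaks in the windows of MAX and the other members except MYC, by the distance of the summit from the TSS in kb (dotted line at 0, positive values run in the direction of transcription). MYC proteins are red, MAX is dark grey, antagonists are blue, and the dashed line is the median of all peaks, 6.10. The peaks upstream of MGA (38.0) and MNT (29.1) stand above the rest, and in 8 of the 9 panels the highest peak lies away from the start. Over all protein-coding genes with a peak in the region concerned, the median highest fold is 16.0 within 50 kb of the record and 6.39 near the TSS.

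Over the 9 members other than MYC, the 103 peaks had medians of 47 fragments, 5.51 in fold enrichment and 5.00 in local input, next to 53, 6.10 and 5.00 over all peaks. A fold of at least 5 was reached by 59.2% of them and by 62.9% of all peaks. Apart from MGA and MNT, the highest fold of each window was ordinary or low beside that of other protein-coding genes. It was above 59.7% of genes at MYCL, 57.1% at MYCN, 51.3% at MXI1 and 51.0% at MXD1. At MAX, MXD3 and MXD4 it was above 44.6%, 25.8% and 5.07%. For 51 of the 103 peaks the member was the nearest protein-coding TSS and for 52 it was another gene, so about as many peaks in these windows were closer to a neighbor as to the member itself. The windows end at a fixed distance from the gene record: the nearest peaks just inside and just outside had folds of 12.0 and 12.8 at MYCL, 10.1 and 9.20 at MXD3, 6.82 and 8.23 at MXI1, 9.81 and 7.57 at MNT, 6.51 and 9.59 at MGA, 5.08 and 7.13 at MXD4, 3.41 and 5.20 at MYC, 3.15 and 5.68 at MAX, 4.66 and 12.3 at MXD1, and 13.8 and 3.74 at MYCN. The outer peak had the higher fold at 7 of the 10 members, a count that does not compare signal across a window end.

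Other genes of the pathway were taken from 6 lists of textbook partners, regulators and targets, and 43 of the 51 that could be placed (84.3%) had a peak near the TSS, against 57.2% of protein-coding genes, with a median highest fold enrichment of 7.27. The lists were chosen with earlier results of these data known, so the higher share is not an independent result. A fold of at least 5 was reached by 31 of the 51, against 38.5% of protein-coding genes. MLX and MLXIPL, which form a parallel network around MLX, had folds of 5.35 and 3.60. Of the SIN3-HDAC corepressor, through which MXD proteins repress, 6 of 8 genes had a peak, led by SAP18 with 9.36 and RBBP4 with 8.70, and HDAC2 and RBBP7 had none. Of the Polycomb complex that contains MGA, 8 of 9 had a peak, led by CBX3 with 14.2 and L3MBTL2 with 10.5, and TFDP1 had none. Of the coactivators that MYC recruits, 7 of 9 had a peak, led by WDR5 with 14.4, and TRRAP and KAT2A had none. Of the genes that control turnover of MYC protein, 7 of 8 had a peak, led by the kinase gene PLK1 with 10.6, and HUWE1 had none. Of the textbook MYC targets, 13 of 15 had a peak, led by CCND2, which encodes cyclin D2, with 17.5 and 134 fragments (112 to 159), and LDHA, which encodes lactate dehydrogenase A, with 17.1 and 130 fragments (109 to 154), and NCL and NOP56 had none. No member reached these values near its own TSS, where the highest was 8.38 at MYCN.

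**Figure D5:**
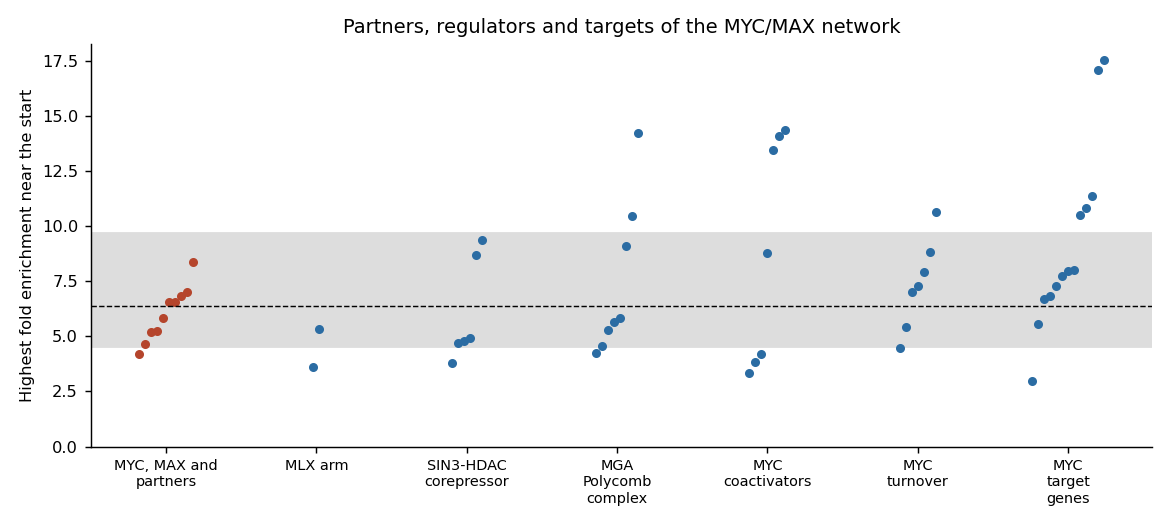
Highest fold enrichment of an OTX2 peak near the TSS for the 10 members (red) and for the genes of 6 pathway lists with a peak there (blue), 1 point a gene. The dashed line is the median of the 11367 protein-coding genes with such a peak, 6.39, and the grey band runs from the lower to the upper quartile, 4.53 to 9.69. The members lie at or below 8.38, and single genes of the coactivator, Polycomb and target lists reach 14.2 or more.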

How the data were processed

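D283 tumorsphere chromatin gave 1 OTX2 ChIP library and 1 input library of paired-end reads. Per the submitters' processing notes and the file header, bowtie2 2.2.4 was the authors' aligner, on GRCh38, and MACS2 2.1.0.20140616 was their peak caller, at a q-value cutoff of 0.05, keeping 1 fragment per position. They state that peaks in the ENCODE blacklist were masked. The deposited pileup is a signal scaled by the authors to the input library. The deposited fold enrichment is a ratio to local input, and p and q are deposited as −log10 values.

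Pileup values were whole multiples of 0.735 to within 0.0068 of a step, and 1 step was counted as 1 fragment. The ratio of input to ChIP fragments is 0.368, so the step is 2 times that ratio, and 0 of 137412 pileups were odd multiples of it; the reason was not tested. Local input was computed as (pileup + 1) / fold − 1, the largest of a genome-wide value and of input averaged over 1000 and 10000 bp. Intervals are exact Poisson intervals (95%) and cover counting error only. Peaks were joined to genes by an overlap of at least 1 bp with the GRCh38 positions recorded in GENCODE release 44. Introns and exons named without a number are those of any annotated transcript. Intron numbers are those of the Ensembl canonical transcript. MLXIP has no such position in the annotation used and was not analysed here. Promoters came from RefSeq (GRCh38.p14), and the sequences of other peaks were not analysed here. The text names all 10 members with their peaks near the TSS and their most enriched peak, further peaks of the members chosen after their values were seen, the 2 most enriched genes of each list (in 2 lists 1 of them is not reported here), listed genes without a peak, and neighbors of described peaks. The members and lists were chosen with earlier results of these data known. Tables were handled with pandas 2.3.3 and numpy 2.4.6 in Python 3.11.15, intervals were computed with scipy 1.17.1, and figures were drawn with matplotlib 3.10.9. The scripts were tested on simulated data. Alternatives changed the window, the fold and q thresholds, the choice of start site and the peaks kept by local input.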

Additional observations from a re-analysis of the deposited data

How the results depend on the processing

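No paired analysis was possible because a single ChIP and a single input library were analysed. Of 35 alternatives, 24 stayed within the bounds set for them and 11 did not. The median local input in the MYC window was 13.4 with 1000 kb on either side and 14.0 with 50 kb. Peaks in the MYC window numbered 162 with 1000 kb, 15 with 50 kb, 42 at a fold of at least 5, and 29 without peaks at 3 times the input floor or more. Peaks in the windows of the 10 members numbered 118 with 50 kb for MYC too, 103 at a fold of at least 5, 130 without peaks at 3 times the floor or more, and 103 without the MYC window. Members with a peak near the TSS fell to 6 without peaks on the input floor, against 44.1% of protein-coding genes. The count without the MYC window and the use of RefSeq gene records, under which all 10 members had a peak near the TSS, were chosen after seeing the data. The input library was the shallower one and limits the precision of each fold, with 26.4% of peaks on the floor. Without a second ChIP library, the spread between cultures is unknown.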
